A study of Anolis sagrei with 15 samples.

Results

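The nasal and the temporal side of the posterior globe, the back of the eyeball that carries the retina, were compared in embryos of the brown anole, *Anolis sagrei*. The comparison took the 5 nasal and the 5 temporal RNA-seq libraries, 10 of the 15 in the series, by their region labels, and all 20235 gene models of the count table. Every library came from embryos at Sanger stage 16.5, a late embryonic stage, laid by wild-caught parents. No library was treated, the sexes were mixed, and per the study's methods tissue of 3 embryos was pooled, so a library is not a single animal. The third region, central, provides 5 further libraries. They are compared by no test here. They enter the alternative runs that fit all 15 libraries and a description of their mean levels at the end of the results. Nasal libraries held 18365334 to 25166494 counted reads (median 19993197) and temporal libraries 15177438 to 24688374 (median 22167258). The number of gene models with a read was 18088 ± 279 in nasal and 18095 ± 427 in temporal libraries (SD, n = 5 each, exact paired permutation p = 0.938, two-sided, where 5 pairs cannot go below 0.0625).

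In vertebrate eyes the temporal side of the early optic cup expresses the forkhead factor *FOXD1*, and the nasal side expresses factors of its own, such as *HMX1*. In chick and mouse such factors set up opposing gradients of EphA receptors, high in temporal ganglion cells, and ephrin-A ligands, high in nasal ones, which order the axons of the retina on their target in the brain. The anole retina also forms a deep central and a shallow temporal fovea, pits in regions of dense photoreceptors and ganglion cells.

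Markers of neural retina were read in all 10 libraries, among them both gene models of *PAX6*, a factor of the eye field and retina, which were at 297 CPM or more (counts per 1000000 counted reads, after scaling of the libraries). The tissue label is posterior globe and not retina, and the libraries also held pigment epithelium, with *RPE65*, the isomerase of the visual cycle, at 178 to 235 CPM in nasal and 209 to 364 CPM in temporal libraries. Among markers of other tissues, those of lens, muscle and surface epithelium named here were low but mostly not absent. Those of blood, endothelium and cartilage were not all low. A gene model of the haemoglobin *HBA1* was at 73.97 to 333.7 CPM in nasal and 125 to 417.4 CPM in temporal libraries. The collagen *COL2A1* was at 85.55 to 141.8 CPM in nasal and 64.98 to 99.97 CPM in temporal libraries. Others were low, such as the blood factor *GATA1*, at 1.574 CPM or less. Of the lens proteins, *BFSP1* and *MIP* stayed below 0.3 CPM in every library, whereas *BFSP2* was at 1.24 to 3.05 CPM in nasal and 3.59 to 6.995 CPM in temporal libraries, without overlap. *CRYBB1* was at 0.107 to 0.994 CPM in nasal and 0.598 to 5.89 CPM in temporal libraries. Of the muscle genes, the factor *MYOD1* stayed below 0.3 CPM. The kinase *CKM* was at 0.428 to 6.01 CPM in nasal and 0.907 to 8.05 CPM in temporal libraries. Of the markers of surface epithelium, *TP63* was at 0 in all libraries. The adhesion protein *EPCAM* was at 1.23 to 2.63 CPM in nasal and 2.19 to 4.22 CPM in temporal libraries. In such bulk tissue fewer cells of a type and less RNA per cell cannot be told apart.

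Along the nasal-temporal axis 2818 of 15608 gene models tested differed at an adjusted p under 0.05, 18.1% of those tested (edgeR quasi-likelihood test with the replicate number as a block, Benjamini-Hochberg adjustment). Of these, 1234 were higher in nasal (7.91%) and 1584 were lower (10.1%). Most differences were small, with a median log2 fold change, nasal minus temporal, of 0.41 among the higher and -0.53 among the lower gene models, against 0.01 over all tested. Values in brackets below are such log2 fold changes ± SE, and adjusted p refers to this test. The SE was worked back from the fitted difference and the F value of this test, not taken from the fit. It is approximate and may be too small where a region has few reads, as nasal has for *FOXD1* and *DIO2*. Large differences lay mainly on the temporal side. More than 2-fold, 58 gene models were higher in nasal (0.372%) and 276 lower (1.77%), and more than 4-fold, 8 were higher (0.0513%) and 62 lower (0.397%). The 5 nasal libraries lay above all temporal ones for 541 gene models (3.47%) and below all of them for 905 (5.8%), 1446 in all (9.26%). The same direction in all 5 pairs of replicates was seen for 2468 of the 2818.

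The count of calls depended on the pairing of the libraries and on single replicates. Without the block 1503 gene models were called, 563 higher and 940 lower. Without replicate 3, 4 or 5, each of which removes a nasal and a temporal library, 1608, 1706 and 1636 were past the threshold. In the plot of all gene models most calls lie close to 0 and a few stand far from it.

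**Figure D1:**
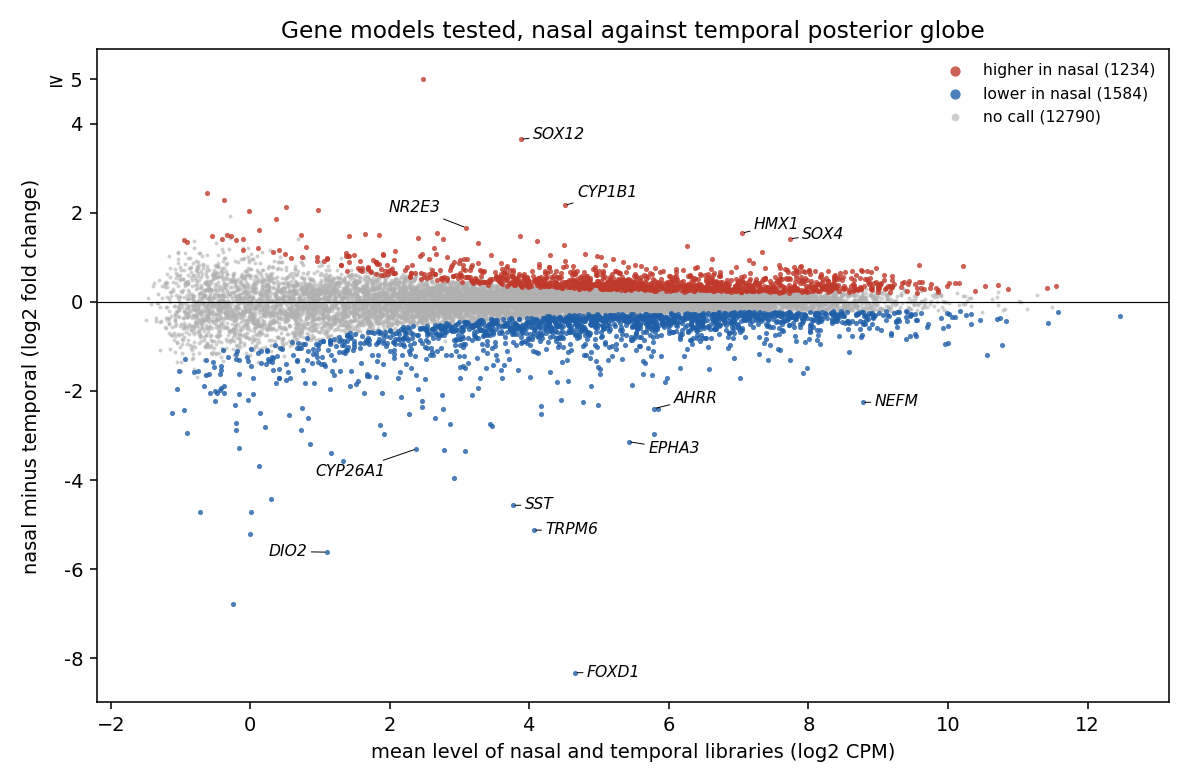
Log2 fold change, nasal minus temporal, against the mean level of the 10 libraries in log2 CPM, with 1 point for each of the 15608 gene models tested. Red points (1234) were higher and blue points (1584) lower in nasal at an adjusted p under 0.05, and grey points were not called. Values above 5 are drawn at the upper edge, and 62 blue and 8 red points lie more than 4-fold from 0.

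*FOXD1*, the temporal factor, had the largest fall of all gene models tested. Its level was 0.268, 0, 0.298, 0.160 and 0.0803 CPM in nasal libraries 1 to 5, against 48.0, 60.4, 62.2, 34.7 and 46.1 CPM in temporal libraries 1 to 5. All 5 nasal libraries lay far below the temporal ones (log2 fold change -8.32 ± 0.26, edgeR adjusted p = 9.60e-11). The regions could thus be told apart by *FOXD1* in every library, and no library went against its label.

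*HMX1*, a homeobox factor of the nasal retina in mouse and chick, was read on both sides and was graded rather than absent. Its level was 228, 185, 198, 205 and 172 CPM in nasal libraries 1 to 5, against 83.1, 68.6, 65.3, 70.3 and 53.0 CPM in temporal libraries 1 to 5, without overlap (1.55 ± 0.07, edgeR adjusted p = 9.61e-09). Its relatives *HMX2* and *HMX3* were not called and stayed below 4 CPM. *SALL3*, a zinc finger factor of cone photoreceptors and horizontal cells in mouse, had 235, 259, 266, 236 and 298 CPM in nasal and 170.5, 148, 153, 138 and 175 CPM in temporal libraries 1 to 5, again apart (0.72 ± 0.07, adjusted p = 1.30e-05). *RAX*, needed for the eye field, was higher in nasal by a smaller amount (0.45 ± 0.10, adjusted p = 0.00504). *FOXD2*, a neighbour of *FOXD1* in sequence, was lower, at 0.588 to 1.07 CPM in nasal and 1.95 to 4.09 CPM in temporal libraries (-1.81 ± 0.27, adjusted p = 0.000266).

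Of the 16 tested members of the list of nasal-temporal factors, 5 were higher in nasal and 2 lower, against 7.91% and 10.1% over all gene models tested, with a median of -0.01. One of the higher members, *ZIC1*, overlapped between the regions (6.97 to 12.6 CPM in nasal and 3.16 to 14.3 CPM in temporal libraries, 0.79 ± 0.25, adjusted p = 0.0428) and was not called without the block (adjusted p = 0.229) or without replicate 1, 3, 4 or 5 (0.0920, 0.140, 0.149 and 0.220). *PAX6*, which is expressed across the retina, differed by 0.01 and -0.14 in its gene models, neither of them called.

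Beyond these factors, the SOXC family, which promotes neuronal differentiation, was higher in nasal in all 3 of its members. *SOX12* showed the largest rise among SOX factors, with 18.9, 36.2, 17.6, 24.6 and 38.4 CPM in nasal and 2.12, 4.84, 1.32, 0.317 and 3.21 CPM in temporal libraries 1 to 5 (3.65 ± 0.28, edgeR adjusted p = 8.89e-07). *SOX4* had 247, 284, 332, 315 and 378 CPM in nasal and 118, 146, 107, 85.5 and 129 CPM in temporal libraries 1 to 5 (1.42 ± 0.12, adjusted p = 1.30e-06). Neither gene overlapped between the regions. *SOX11* overlapped and differed less (0.58 ± 0.10, adjusted p = 0.00122). *SOX8* and *SOX10*, factors of glia and neural crest, were lower in nasal (-0.82 and -0.55). Summed over the 21 SOX gene models, the level was 624 to 771 CPM in nasal and 429.6 to 491 CPM in temporal libraries.

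Homeobox factors leaned to the nasal side, with 16 of 81 tested members higher (19.8%) and 1 lower (1.23%, median 0.05). Over all gene models tested 7.91% were higher and 10.1% lower. Of the 81, 14 were above all temporal libraries, as were 3.47% of all gene models tested. The only lower member was *POU4F2*, a ganglion cell factor (-0.27), which lost its call without the block. Forkhead factors went both ways, 6 higher (21.4%) and 5 lower (17.9%) of 28. The 4 with the largest falls were *FOXD1*, *FOXI2* (0 to 0.0536 CPM in nasal and 0.544 to 2.88 CPM in temporal libraries), *FOXD3* (0 to 0.161 CPM in nasal and 0.664 to 1.62 CPM in temporal libraries) and *FOXD2*. Of 53 basic helix-loop-helix factors, 10 were higher (18.9%) and 8 lower (15.1%). The counts were 6 and 7 without the block, and 6 to 12 and 6 to 12 with a replicate left out. The largest fall among them was *AHRR*, described with retinoic acid below, and *BHLHE40*, a repressor that responds to hypoxia and to the clock, was lower as well (-1.29 ± 0.13, adjusted p = 9.91e-06).

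EphA receptors differed in most of their gene models, and in 1 direction. Of 15 tested gene models of EphA receptors and ephrin-A ligands, none was higher and 9 were lower in nasal, all 9 of them receptors whose nasal libraries lay below every temporal one, where 5.8% of all gene models tested did so, and the median log2 fold change was -1.04. *EPHA3* had 6.22, 9.42, 10.4, 9.84 and 8.03 CPM in nasal libraries 1 to 5, against 65.1, 68.1, 91.1, 73.5 and 87.4 CPM in temporal libraries 1 to 5 (-3.14 ± 0.11, edgeR adjusted p = 4.58e-10). A second gene model of that name differed alike, with 1.07 to 2.03 CPM in nasal and 12.2 to 17.5 CPM in temporal libraries (-3.35 ± 0.17, adjusted p = 1.03e-08).

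*EPHA5* differed less, with 64.6, 88.0, 75.9, 73.4 and 73.2 CPM in nasal and 129, 150.1, 170.0, 153 and 170.1 CPM in temporal libraries 1 to 5 (-1.04 ± 0.08, adjusted p = 8.83e-07). *EPHA6* had 6.58 to 8.73 CPM in nasal and 21.7 to 27.5 CPM in temporal libraries in its main gene model (-1.69 ± 0.13) and at most 3.09 CPM in its second (-2.49). *EPHA7* had the smallest called difference (23.3 to 30.5 CPM in nasal and 32.5 to 43.0 CPM in temporal libraries, -0.53 ± 0.09, adjusted p = 0.000871). The 3 gene models of *EPHA8* were read at under 5 CPM in all libraries and were lower in nasal (-2.88, -3.28 and -2.55). Where a symbol stands on several gene models, as for *EPHA3*, *EPHA6* and *EPHA8*, they may be pieces of 1 gene or near copies between which the authors' counting could split reads, and their calls are not independent.

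With *EPHA8* left aside, the differences decreased in size from *EPHA3* through *EPHA6* and *EPHA5* to *EPHA7*, with *EPHA4* (-0.20, adjusted p = 0.0718) and *EPHA2* (-0.31, adjusted p = 0.240) not called. In this fit the ephrin-A ligands were not called in either direction. Of the whole list of receptors and ligands, 1 member was called higher in nasal with limma-voom and 1 without replicate 2. *EFNA2* had 6.90 to 8.91 CPM in nasal and 7.97 to 8.97 CPM in temporal libraries (-0.09 ± 0.14, adjusted p = 0.684), *EFNA1* differed by 0.38 (adjusted p = 0.0959), and *EFNA3* and *EFNA4* were not called either. *EFNA5*, the ligand with a nasal gradient in chick, fell below the filter on low counts with 73 reads over the nasal and 29 over the temporal libraries, a level too low to test. Summed over all 17 gene models the level was 227 to 259 CPM in nasal and 391.5 to 499 CPM in temporal libraries.

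EphB receptors and their ligands, which order the other axis of the retina in chick and mouse, differed less. None of 11 tested gene models was lower and 3 were higher in nasal (27.3%, against 7.91% over all gene models tested). The 3 were 2 of 3 gene models of *EPHB2* and *EPHB3*, with a median of -0.05 over the list. The firmest of them, an *EPHB2* model, had 107 to 161 CPM in nasal and 70.6 to 103 CPM in temporal libraries (0.46 ± 0.09, adjusted p = 0.00289). The other *EPHB2* model was not called without the block (adjusted p = 0.144) and *EPHB3* not without replicate 5 (0.0607), whereas the *EPHB2* gene model with most reads was not called (-0.14, adjusted p = 0.160). Of 12 tested dorsal-ventral factors 2 were higher (16.7%) and 3 lower (25%, against 10.1% over all gene models tested), but 1 and 0 without the block. *VAX2*, a ventral factor, was higher in nasal (5.62 to 19.2 CPM in nasal and 3.33 to 7.37 CPM in temporal libraries, 0.97 ± 0.26, adjusted p = 0.0171), but not called without replicate 3 or 5 (adjusted p = 0.0570 and 0.110). The dorsal factor *TBX5* was lower (7.07 to 22.9 CPM in nasal and 19.8 to 35.9 CPM in temporal libraries, -0.89 ± 0.27, adjusted p = 0.0383), but not called without the block (adjusted p = 0.0631), without replicate 1, 2 or 3 (0.0611, 0.325 and 0.165) or in DESeq2 (0.105). The T-box relatives of *TBX5* on the list went both ways. *TBX2* was higher in nasal (425 to 560 CPM in nasal and 360 to 438 CPM in temporal libraries, 0.28 ± 0.07, adjusted p = 0.00890). *TBX3* was lower (-0.31 ± 0.08, adjusted p = 0.0153). Under the 14 alternative runs *TBX2* lost its call in 2 and *TBX3* in 5. How far the dissected pieces matched in their dorsal-ventral position was not tested.

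**Figure D2:**
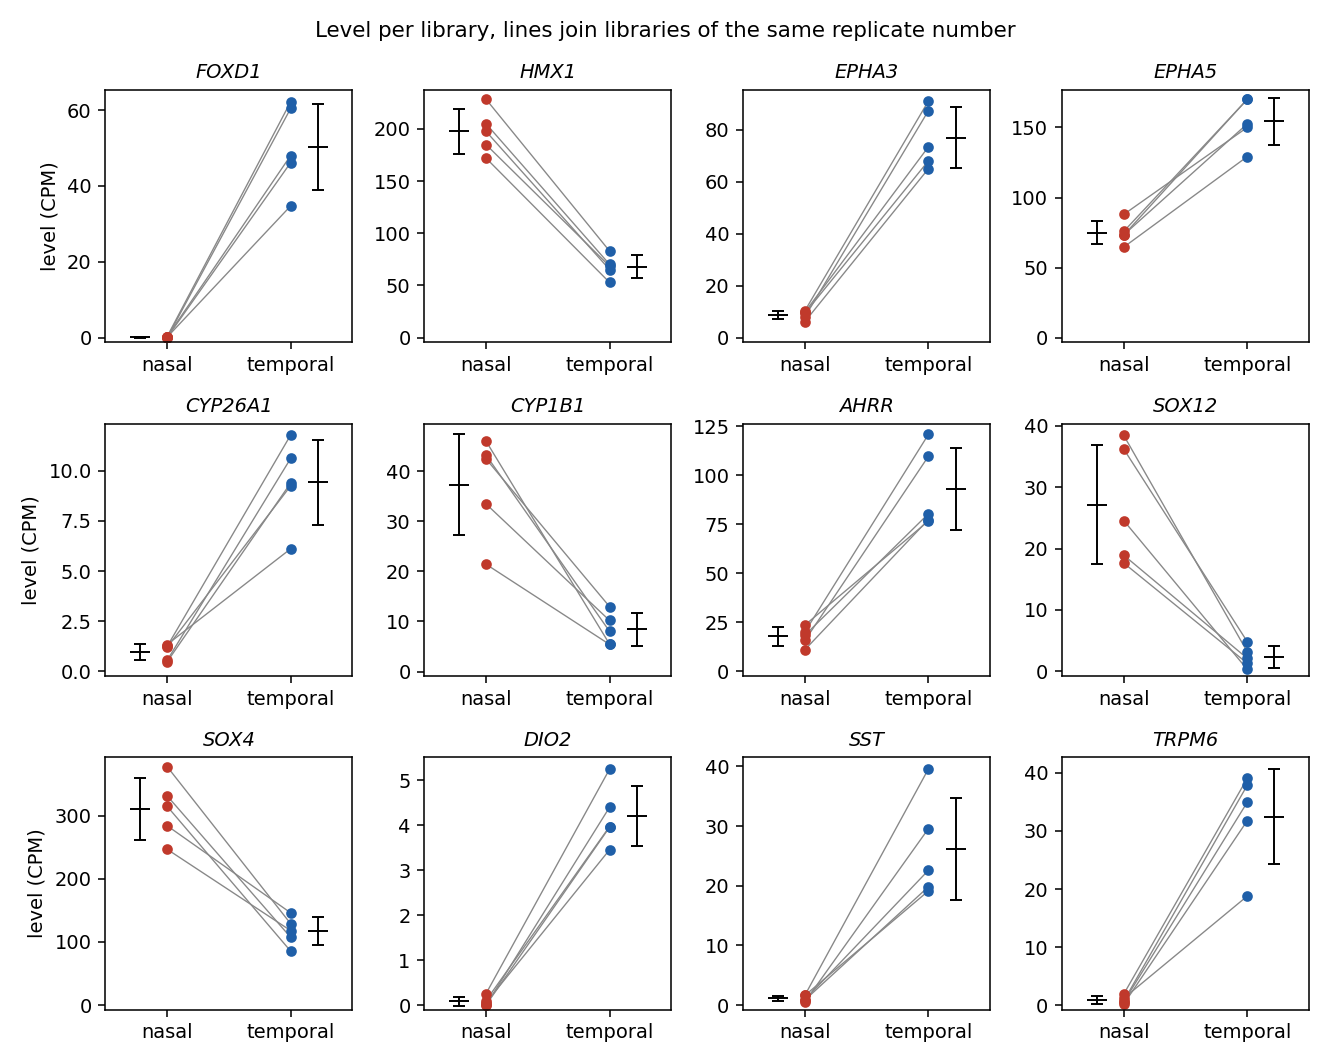
Level in CPM of 12 gene models in each of the 5 nasal (red) and 5 temporal (blue) libraries, with grey lines between libraries of the same replicate number and black bars for mean ± SD. In all 12 panels the 5 nasal points lie on one side of the 5 temporal points, above them for *HMX1*, *CYP1B1*, *SOX12* and *SOX4* and below them for the other 8.

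Retinoic acid is a vitamin A derivative whose local synthesis and breakdown divide the embryonic retina into zones. Among the enzymes that break it down, the only one called was higher on the temporal side. *CYP26A1*, that enzyme, had 1.34, 0.549, 1.24, 0.481 and 1.20 CPM in nasal libraries 1 to 5, against 6.11, 10.6, 11.8, 9.38 and 9.24 CPM in temporal libraries 1 to 5 (-3.30 ± 0.27, edgeR adjusted p = 1.37e-06). The groups did not overlap. *CYP26C1*, its neighbour in the genome, was not tested for lack of reads, 15 in nasal and 60 in temporal libraries, and *CYP26B1* was not called (0.31). *CYP1B1*, a cytochrome P450 that can make retinoic acid without the usual dehydrogenases, went the other way, with 43.2, 46.0, 42.5, 33.5 and 21.4 CPM in nasal and 8.03, 5.49, 13.0, 10.2 and 5.41 CPM in temporal libraries 1 to 5 (2.17 ± 0.17, adjusted p = 9.73e-07). Nasal 5 held the lowest of these nasal levels and still lay above every temporal library. The dehydrogenase models *ALDH1A1*, *ALDH1A2* and *ALDH1A3* that were tested were not called.

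Carriers and receptors of the pathway were lower in nasal. *CRABP1*, a binding protein of retinoic acid in the cytoplasm, had 41.4, 34.8, 30.6, 19.4 and 34.4 CPM in nasal and 76.5, 104, 79.0, 52.8 and 62.1 CPM in temporal libraries 1 to 5 (-1.22 ± 0.11, adjusted p = 4.68e-06), and the adjoining gene model *CRABP2* ran in parallel (15.5 to 37.8 CPM in nasal and 43.1 to 109.6 CPM in temporal libraries, -1.33 ± 0.13). Whether the *CRABP1* and *CRABP2* models are separate genes or share reads was not tested, so their calls may not be independent. *RXRA*, a partner of the retinoic acid receptors, differed by -0.80 ± 0.08 without overlap. The retinol dehydrogenase *RDH10* was lower in 1 of its 2 gene models (-0.64 ± 0.09, adjusted p = 0.000152). In all, 1 of 20 tested members was higher (5%, against 7.91% over all gene models tested) and 7 were lower (35%, against 10.1%, median -0.28). The weakest of the 7, the retinol receptor *STRA6* (-0.41 ± 0.11), was not called without the block (adjusted p = 0.172) or without replicate 3 or 4 (0.123 and 0.0783).

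*AHRR*, the repressor of the aryl hydrocarbon receptor, which in mammals drives *CYP1B1*, had 11.04, 15.8, 20.1, 23.6 and 18.4 CPM in nasal and 77.3, 109.6, 121, 76.6 and 80.3 CPM in temporal libraries 1 to 5 (-2.40 ± 0.14, edgeR adjusted p = 5.76e-08). It was thus low where *CYP1B1* was high. The receptor itself, *AHR*, was not called (-0.17, adjusted p = 0.143).

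Thyroid hormone, which steers cone opsin choice in vertebrate retinas, showed a local difference in its activating enzyme. *DIO2*, the deiodinase that turns the prohormone T4 into active T3, had 0.0536, 0.253, 0.0994, 0 and 0 CPM in nasal and 3.45, 5.24, 3.97, 4.40 and 3.96 CPM in temporal libraries 1 to 5, 9 reads against 438 in all (-5.62 ± 0.47, adjusted p = 1.52e-06). Every temporal library lay above every nasal one, and with so few nasal reads the fitted difference moved to -6.53 without replicate 2. The receptor *THRB* was lower in nasal by a small amount (208 to 276 CPM in nasal and 279 to 346 CPM in temporal libraries, -0.35 ± 0.08, adjusted p = 0.00891, but 0.0526 without replicate 3 and 0.0535 without replicate 4), as was the hormone transporter *SLCO1C1* (-0.64 ± 0.13, adjusted p = 0.00251). The deactivating enzyme *DIO3* was not called (-0.24). Of the 12 tested members 3 were lower (25%, against 10.1% over all gene models tested). None was higher, against 7.91% over all gene models tested.

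Among secreted signals, FGF ligands and their feedback genes were lower in nasal more often than higher, 11 against 1 of 30 tested (median -0.22). These were 36.7% and 3.33%, against 10.1% and 7.91% over all gene models tested, although only 4 were lower without the block. *FGF9*, a ligand made by retinal neurons in mouse, had 19.6, 19.7, 16.5, 13.9 and 14.6 CPM in nasal and 46.1, 45.9, 58.4, 44.2 and 37.5 CPM in temporal libraries 1 to 5 (-1.46 ± 0.11, adjusted p = 6.77e-07), and *FGF5* had 3.55 to 5.79 CPM in nasal and 9.95 to 19.1 CPM in temporal libraries (-1.48 ± 0.15). Neither overlapped. The only higher member, *FGFRL1*, encodes a receptor without a kinase domain (202 to 296 CPM in nasal and 124 to 167 CPM in temporal libraries, 0.77 ± 0.07, adjusted p = 6.62e-06).

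Of 50 tested members of BMP, TGF-beta and activin signalling, 5 were higher and 11 lower. These were 10% and 22%, against 7.91% and 10.1% over all gene models tested, so the higher share was near that over all. *FST*, follistatin, an extracellular inhibitor of activins and BMPs, had 26.1, 30.8, 26.7, 38.1 and 26.4 CPM in nasal and 75.6, 88.6, 97.0, 121 and 98.9 CPM in temporal libraries 1 to 5, apart in every library (-1.70 ± 0.09, adjusted p = 2.27e-08). *INHBA*, a subunit of activin, was lower as well (5.52 to 8.15 CPM in nasal and 11.97 to 16.0 CPM in temporal libraries, -1.08 ± 0.13), as was the ligand *BMP7* (-0.52), whereas the intracellular inhibitor *SMAD7* was higher (0.56, adjusted p = 0.000539). Without the block 1 member was higher and 7 were lower, and with a replicate left out 1 to 7 were higher and 7 to 12 lower.

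WNT signalling differed in few members, 3 higher and 2 lower of 43 tested (11.6% called, against 18.1% over all gene models tested), and both lower ones were secreted antagonists, *FRZB* (1.84 to 2.52 CPM in nasal and 5.35 to 7.70 CPM in temporal libraries, -1.58 ± 0.19) and *SFRP1* (-0.90). Of 14 hedgehog members 3 were lower (21.4%) and 1 was higher (7.14%), against 10.1% and 7.91% over all gene models tested. The transcription factors *GLI2* and *GLI3* were among the lower ones (-0.45 and -0.46), with *GLI2* not called without replicate 5 (adjusted p = 0.0747). Notch signalling leaned to the nasal side, with 8 of 20 tested members higher (40%) and 3 lower (15%, median 0.23). The ligand *DLL1* (0.45 ± 0.10), the nuclear effector *RBPJ* (0.42 ± 0.10) and the target *HES5* (0.55 ± 0.18 and 0.52 ± 0.12 in its 2 called gene models) were higher, while the target *HEY2* was lower (3.37 to 6.54 CPM in nasal and 7.21 to 12.9 CPM in temporal libraries, -1.18 ± 0.16). Only 2 Notch members were higher without the block and 2 to 9 when a replicate was left out. *DLL1*, *RBPJ* and the second *HES5* model lost their calls without the block (adjusted p = 0.0830, 0.0696 and 0.0527), as did *RBPJ* without replicate 3 or 5 (0.0546 and 0.0679) and that *HES5* model without replicate 5 (0.0571).

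**Figure D3:**
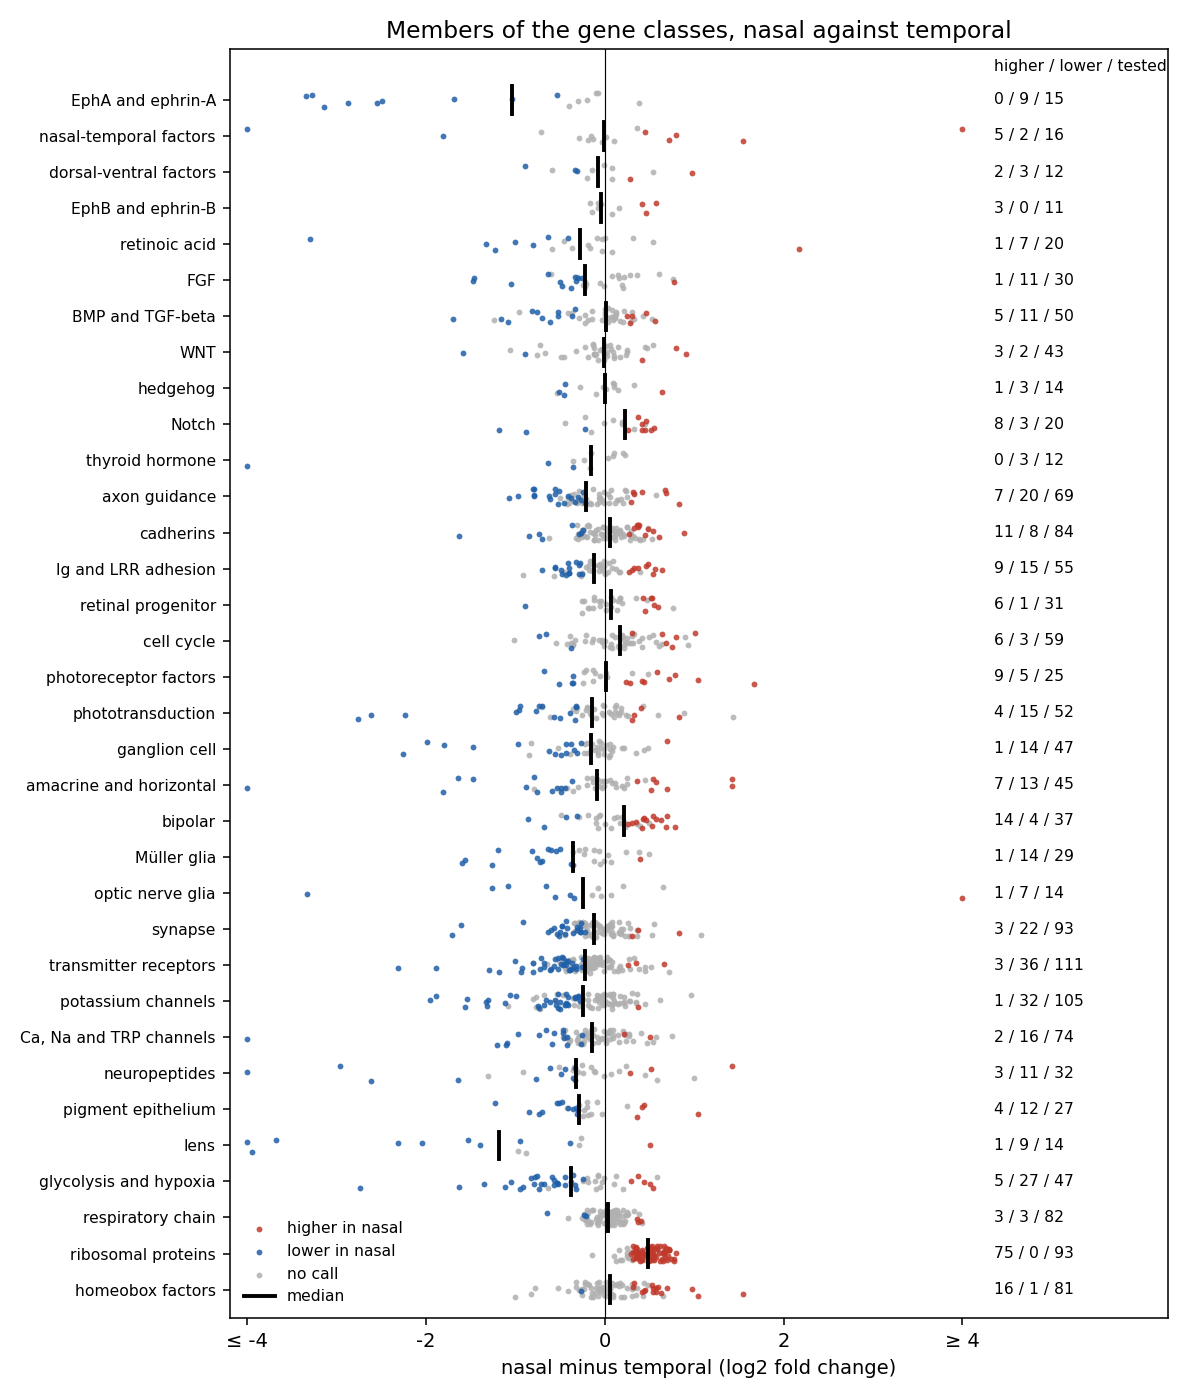
Log2 fold change, nasal minus temporal, of every tested member of 34 gene classes (1 point per gene model, values beyond -4 or 4 drawn at the edge), with a black bar at the median of the class and, at the right, the numbers higher, lower and tested. Ribosomal proteins lie almost wholly right of 0, EphA receptors, lens, glycolysis and Müller glia genes mostly left of it, and gene models that belong to several classes appear in each.

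Genes for axon guidance were lower in nasal more often than higher, 20 against 7 of 69 tested (median -0.21), and 13 against 4 without the block. The 20 and 7 were 29% and 10.1% of the list, against 10.1% and 7.91% over all gene models tested. *SEMA7A*, a semaphorin anchored in the membrane, had 89.9 to 163 CPM in nasal and 211 to 283 CPM in temporal libraries in its main gene model (-1.07 ± 0.08, adjusted p = 7.20e-07). The secreted repellent *SEMA3A* was lower too (40.1 to 46.7 CPM in nasal and 61.2 to 70.0 CPM in temporal libraries, -0.63 ± 0.08). *SEMA3F*, of the same family, was higher (219 to 353 CPM in nasal and 166 to 193 CPM in temporal libraries, 0.67 ± 0.09, adjusted p = 9.20e-05), as was *SEMA4F* (0.69 ± 0.09).

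Of 84 cadherins and protocadherins 11 were higher and 8 lower, 22.6% called and thus near the 18.1% over all gene models tested, and 7 and 4 without the block. *PCDH17*, a protocadherin of synapses, had 373 to 529.9 CPM in nasal and 643 to 808 CPM in temporal libraries (-0.70 ± 0.07, adjusted p = 1.49e-05), and *CDH13*, a cadherin without a cytoplasmic domain, differed by -0.85 ± 0.10. On the nasal side stood the giant cadherin *FAT4* (143 to 226 CPM in nasal and 90.4 to 115 CPM in temporal libraries, 0.88 ± 0.10) and *CDH11* (0.54 ± 0.08). A further list held adhesion molecules with immunoglobulin or leucine-rich domains, and teneurins. Of its 55 tested gene models 9 were higher and 15 lower (43.6% called, and 5 and 11 without the block). *DSCAM*, which spaces retinal neurites in mouse, was at 543 to 582 CPM in nasal and 339.8 to 440.5 CPM in temporal libraries (0.54 ± 0.07, adjusted p = 8.95e-05). The teneurin *TENM2* was at 272 to 350.3 CPM in nasal and 414 to 449.9 CPM in temporal libraries (-0.48 ± 0.07, adjusted p = 0.000185).

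Genes of retinal cell classes went in different directions. Genes of bipolar cells leaned to the nasal side, those of photoreceptor function, ganglion cells and Müller glia to the temporal side, and the photoreceptor fate factors and the genes of amacrine and horizontal cells went both ways. Among 25 tested photoreceptor fate factors 9 were higher (36%, against 7.91% over all gene models tested) and 5 lower (20%, against 10.1%), with a median of 0.01. The counts were 6 and 3 without the block. *NR2E3*, a nuclear receptor of rods in mouse, had 7.82, 15.5, 10.4, 12.6 and 18.7 CPM in nasal and 4.25, 4.56, 3.78, 2.95 and 4.58 CPM in temporal libraries 1 to 5 (1.67 ± 0.18, edgeR adjusted p = 1.73e-05), and all nasal libraries lay above the temporal ones. The proneural factors *NEUROD4* (266 to 333 CPM in nasal and 158 to 202 CPM in temporal libraries, 0.78 ± 0.07) and *NEUROD1* (0.59 ± 0.07) and the photoreceptor and bipolar factor *OTX2* (0.43 ± 0.07 and 0.41 in its 2 gene models) were higher.

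In contrast, 15 of 52 tested phototransduction genes were lower in nasal (28.8%) and 4 higher (7.69%, median -0.14), and 11 and 1 without the block. Over all gene models tested 10.1% were lower and 7.91% higher. The largest falls were those of calcium sensors of guanylate cyclase, *GUCA1B* (0.281 to 1.31 CPM in nasal and 4.65 to 8.75 CPM in temporal libraries, -2.77 ± 0.29) and *GUCA1A* (4.02 to 14.9 CPM in nasal and 32.5 to 51.0 CPM in temporal libraries, -2.24 ± 0.15, in the called gene model with more reads), neither of which overlapped. Another *GUCA1A* model was lower as well (-2.61 ± 0.20), and a further one was not called (-0.32, adjusted p = 0.488). The green-sensitive cone opsin *RH2* had 84.6 to 139 CPM in nasal and 200.04 to 257 CPM in temporal libraries (-0.97 ± 0.09, adjusted p = 3.63e-06), and *SLC24A2*, the sodium-calcium exchanger of cones, 74.2 to 97.2 CPM in nasal and 127 to 166 CPM in temporal libraries (-0.71 ± 0.07). Summed phototransduction levels were 13827 to 15564 CPM in nasal and 14766 to 18772 CPM in temporal libraries, lower in nasal in all 5 pairs though the ranges overlapped.

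Bipolar cell genes were higher in nasal in 14 (37.8%, against 7.91% over all gene models tested) and lower in 4 (10.8%, against 10.1%) of 37 tested gene models (median 0.21). Of the 37, 11 lay above all temporal libraries, as did 3.47% of all gene models tested. *ISL1*, a homeobox factor of ON bipolar, amacrine and ganglion cells, had 253 to 294 CPM in nasal and 152 to 187 CPM in temporal libraries (0.69 ± 0.07, adjusted p = 6.95e-06), and *LHX4*, a factor of the same family, differed by 0.62 ± 0.08. The vesicular glutamate transporter *SLC17A7*, which loads the synaptic vesicles of photoreceptors and bipolar cells, was lower (178 to 219.9 CPM in nasal and 344 to 366 CPM in temporal libraries, -0.86 ± 0.07, adjusted p = 1.45e-06). The factors thus moved one way and this gene of synaptic output the other.

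Ganglion cell genes were lower in 14 (29.8%) and higher in 1 (2.13%) of 47 tested gene models, against 10.1% and 7.91% over all gene models tested. The median was -0.15, and without the block 9 were lower and 1 higher. The neurofilaments, structural proteins of long axons, were among the largest falls. *NEFM* had 217, 132, 152, 148 and 112 CPM in nasal and 719, 879, 918, 625 and 497 CPM in temporal libraries 1 to 5 (-2.26 ± 0.12, edgeR adjusted p = 2.36e-08). *NEFH* (22.2 to 34.0 CPM in nasal and 68.3 to 118 CPM in temporal libraries, -1.80 ± 0.11) and *NEFL* (93.6 to 201 CPM in nasal and 244 to 455 CPM in temporal libraries, -1.48 ± 0.09) followed, all 3 without overlap. The higher member was *ISL1*.

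Of 45 tested genes of amacrine and horizontal cells 7 were higher (15.6%, against 7.91% over all gene models tested) and 13 lower (28.9%, against 10.1%), with a median of -0.08. The neuropeptide somatostatin, *SST*, had 1.61, 0.549, 1.64, 0.909 and 0.843 CPM in nasal libraries 1 to 5, against 19.1, 29.5, 39.5, 22.6 and 19.8 CPM in temporal libraries 1 to 5, so that even the lowest temporal library stood far above the highest nasal one (-4.57 ± 0.22, edgeR adjusted p = 9.61e-09). A second gene model named *SST*, read at no more than 2.46 CPM, was higher in nasal (1.42, adjusted p = 0.0289), so the symbol covers different genes or pieces. The calcium-binding protein *CALB1* (7.66 to 11.7 CPM in nasal and 23.1 to 43.3 CPM in temporal libraries, -1.81 ± 0.11) and the peptide *CARTPT* (-1.65 ± 0.22) were lower.

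Müller glia, the radial glia of the retina, gave one of the most even sets, with 14 of 29 tested gene models lower (48.3%) and 1 higher (3.45%). Over all gene models tested 10.1% were lower and 7.91% higher. The median of the list was -0.35, and 14 were lower without the block. *GFAP*, an intermediate filament of glia, had 153, 137, 136, 121 and 70.4 CPM in nasal and 371, 381, 369, 389 and 305 CPM in temporal libraries 1 to 5 (-1.60 ± 0.10, adjusted p = 1.10e-07). *CA2*, carbonic anhydrase, had 1064, 1114, 1009.7, 749.8 and 722 CPM in nasal and 2019.7, 2229, 2076, 2092 and 2057 CPM in temporal libraries 1 to 5 (-1.19 ± 0.09, adjusted p = 7.37e-07). The regions did not overlap for either gene. The potassium channel *KCNJ10*, by which these glia buffer potassium, had 7.70 to 12.5 CPM in nasal and 26.4 to 36.7 CPM in temporal libraries (-1.56 ± 0.12) and the glutamine transporter *SLC38A3* 128 to 159 CPM in nasal and 218 to 254 CPM in temporal libraries (-0.73 ± 0.07). Summed over 34 gene models, Müller glia genes came to 4984 to 5440.4 CPM in nasal and 7474 to 8132 CPM in temporal libraries.

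Myelin and optic nerve glia genes were lower in 7 of 14 tested gene models (50%, against 10.1% over all gene models tested) and in 4 without the block. *PMP2*, a fatty acid binding protein of myelin, had 1.61, 1.94, 0.894, 1.44 and 0.442 CPM in nasal and 13.4, 9.61, 11.9, 13.6 and 13.4 CPM in temporal libraries 1 to 5 (-3.33 ± 0.27, adjusted p = 1.21e-06). *MBP*, myelin basic protein, had 51.8 to 93.3 CPM in nasal and 146 to 223 CPM in temporal libraries (-1.26 ± 0.14) and *CNP* differed by -1.08 ± 0.16. These genes were apart in all libraries.

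Of 31 progenitor genes 6 were higher (19.4%, against 7.91% over all gene models tested) and 1 lower (3.23%, against 10.1%, median 0.07), which became 2 and 1 without the block. Of 59 cell cycle genes 6 were higher and 3 lower, 15.3% called and thus near the 18.1% over all gene models tested. Without the block 1 was higher and 2 were lower. The cyclin-dependent kinase inhibitors split, *CDKN1C* being higher (48.1 to 57.6 CPM in nasal and 26.5 to 34.8 CPM in temporal libraries, 0.79 ± 0.10, adjusted p = 7.80e-05) and *CDKN1A* lower in nasal (40.3 to 46.4 CPM in nasal and 59.0 to 96.0 CPM in temporal libraries, -0.74 ± 0.10, adjusted p = 9.43e-05).

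Genes of synaptic transmission and excitability were mostly lower in nasal where they differed. In these lists the calls are to be read against 10.1% lower and 7.91% higher over all gene models tested. Of 93 tested synapse genes 22 were lower (23.7%) and 3 higher (3.23%, median -0.13). *VAMP1*, a vesicle protein of fast synapses, had 55.6, 71.7, 60.1, 68.6 and 48.3 CPM in nasal and 175, 214, 223, 213 and 166 CPM in temporal libraries 1 to 5 (-1.71 ± 0.08, adjusted p = 6.13e-09). The calcium sensor *SYT2* (21.1 to 27.7 CPM in nasal and 63.6 to 90.5 CPM in temporal libraries, -1.61 ± 0.09), complexin *CPLX1* (-0.92 ± 0.07) and *SNAP25* (-0.54 ± 0.06) were lower, whereas without the block 13 synapse genes were lower.

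Of 111 transmitter receptor gene models 36 were lower (32.4%) and 3 higher (2.7%, median -0.22, 26 and 1 without the block). They belonged to several transmitters, with the dopamine receptor *DRD4* (4.09 to 9.70 CPM in nasal and 13.7 to 19.3 CPM in temporal libraries, -1.30 ± 0.17), the nicotinic subunit *CHRNB3* (46.8 to 68.7 CPM in nasal and 98.0 to 118 CPM in temporal libraries, -0.93 ± 0.08), the kainate receptor subunit *GRIK3* (-0.80 ± 0.08) and the muscarinic receptor *CHRM2* (-0.68 ± 0.08) leading by adjusted p. Potassium channels and their subunits were lower in 32 (30.5%) and higher in 1 (0.952%) of 105 (median -0.24, 18 and 1 without the block), led by *KCNIP3*, a calcium sensor bound to channels (87.5 to 116 CPM in nasal and 218 to 263 CPM in temporal libraries, -1.31 ± 0.08), and *KCND1* (12.2 to 23.1 CPM in nasal and 40.2 to 48.7 CPM in temporal libraries, -1.33 ± 0.12). Calcium, sodium and TRP channels were lower in 16 (21.6%) and higher in 2 (2.7%) of 74 (median -0.15).

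The channel with the largest difference was *TRPM6*, which carries magnesium in epithelia of mammals. Its level was 0.589, 0.211, 0.745, 1.93 and 1.20 CPM in nasal libraries 1 to 5, against 34.9, 31.8, 37.8, 39.0 and 18.8 CPM in temporal libraries 1 to 5 (-5.13 ± 0.29, edgeR adjusted p = 4.90e-08). Temporal 5 was the lowest of its region and still lay far above all nasal libraries. Of 32 tested neuropeptide genes 11 were lower (34.4%) and 3 higher (9.38%, median -0.32, 9 and 1 without the block). Over all gene models tested 10.1% were lower and 7.91% higher. *UCN3*, a urocortin, a peptide of the stress hormone family, had 0.482 to 1.22 CPM in nasal and 3.12 to 8.93 CPM in temporal libraries (-2.96 ± 0.31).

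**Figure D4:**
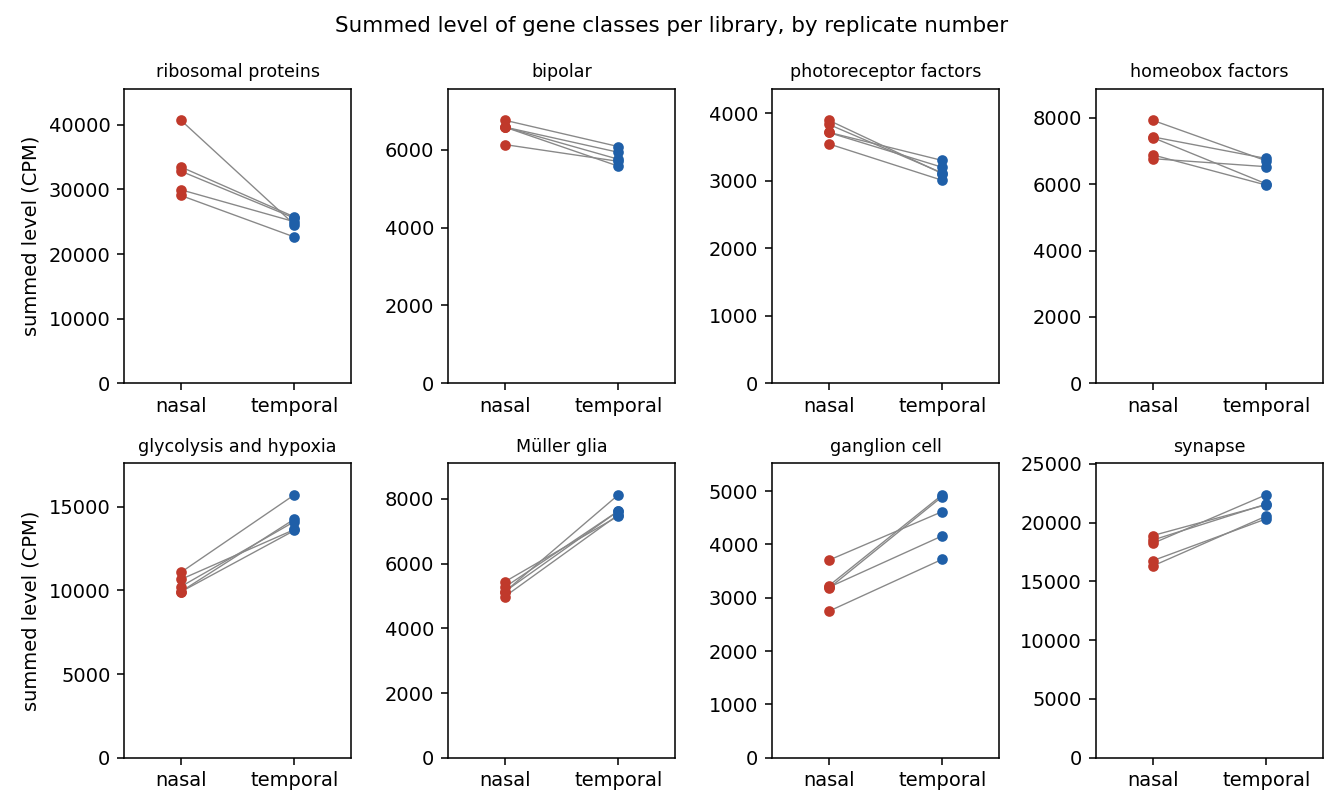
Summed level, in CPM, of all gene models of 8 classes in each nasal (red, left) and temporal (blue, right) library, with lines between libraries of the same replicate number. Nasal libraries lie above their temporal partners in all 5 pairs for the 4 classes of the upper row and below them for the 4 classes of the lower row, and the ranges of the regions overlap only for homeobox factors (6773 to 7932 CPM in nasal and 5977 to 6779 CPM in temporal).

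Genes of glycolysis were mostly lower in nasal. Of 47 tested gene models of glycolysis and the response to low oxygen 27 were lower (57.4%) and 5 higher (10.6%, median -0.38). Over all gene models tested 10.1% were lower and 7.91% higher. In this list 22 to 26 were lower when a replicate was left out and 23 without the block. Hexokinase 2, *HK2*, which opens glycolysis, had 5.68, 2.32, 1.79, 2.30 and 2.65 CPM in nasal and 16.1, 18.5, 19.0, 22.5 and 17.5 CPM in temporal libraries 1 to 5 (-2.74 ± 0.23, adjusted p = 1.54e-06). *HIF1A*, a transcription factor of the response to low oxygen, had 279, 213, 246, 252 and 222 CPM in nasal and 527, 514, 566, 538 and 478 CPM in temporal libraries 1 to 5 (-1.12 ± 0.07, adjusted p = 1.12e-07). Both genes were apart in all libraries.

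Neuronal enolase *ENO2* (575 to 734 CPM in nasal and 1199 to 1585 CPM in temporal libraries, -0.95 ± 0.07) and the lactate exporter *SLC16A3* (97.3 to 149.8 CPM in nasal and 171 to 274 CPM in temporal libraries, -0.92 ± 0.07) were lower too. Among the 12 gene models with the largest falls at a mean of at least 5 CPM in temporal libraries was *PYGL*, the glycogen phosphorylase of liver, with 20.6, 11.6, 14.0, 9.36 and 9.31 CPM in nasal and 107, 90.9, 97.0, 96.0 and 97.2 CPM in temporal libraries 1 to 5 (-2.97 ± 0.13, adjusted p = 6.13e-09). Summed over 51 gene models the glycolysis and hypoxia genes came to 9913 to 11075 CPM in nasal and 13579.8 to 15710.5 CPM in temporal libraries. The 5 higher members were *ADM*, *BNIP3*, *ANKRD37*, *DDIT4* and *PFKFB4* (0.54, 0.50, 0.44, 0.37 and 0.29), all known in mammals to be induced by low oxygen, and 1 member was higher without the block. Subunits of the respiratory chain had few calls, with 3 higher and 3 lower of 82 (7.32% called, against 18.1% over all gene models tested, median 0.04).

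Proteins of the cytoplasmic ribosome were higher in nasal in most gene models. Of 93 tested gene models 75 were higher in nasal (80.6%, against 7.91% over all gene models tested) and none lower. A positive log2 fold change was seen in 92, and the median was 0.48. *RPS19*, a protein of the small subunit, had 146, 193, 96.5, 164 and 193 CPM in nasal and 69.0, 107, 64.0, 107 and 110.0 CPM in temporal libraries 1 to 5 (0.79 ± 0.08, edgeR adjusted p = 1.51e-05). The regions overlapped for *RPS19* although nasal was higher in all 5 pairs. *RPL36* (188 to 266 CPM in nasal and 122 to 186 CPM in temporal libraries, 0.61 ± 0.07) and *RPL12* (0.66 ± 0.08), of the large subunit, ran in parallel.

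Summed over 100 gene models, ribosomal proteins came to 29055 to 40695 CPM in nasal and 22625 to 25730.5 CPM in temporal libraries, with nasal 5 at the top. Without replicate 5 there were 56 higher gene models and a median of 0.40, and without the block 46 higher and a median of 0.49. With all 15 libraries and no block 24 were higher, the fewest of all runs, with a median of 0.48.

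Markers of tissues around the retina were summed to see how far the pieces matched. Of 27 pigment epithelium genes 12 were lower (44.4%) and 4 higher (14.8%) in nasal (median -0.29), and 7 and 3 without the block. Over all gene models tested 10.1% were lower and 7.91% higher. *RDH5*, a dehydrogenase of the visual cycle, had 28.3 to 41.6 CPM in nasal and 50.1 to 74.3 CPM in temporal libraries (-0.70 ± 0.10), and *LRAT*, which esterifies retinol, 2.65 to 8.34 CPM in nasal and 7.58 to 16.0 CPM in temporal libraries (-1.22 ± 0.19). The summed list overlapped, with 3766 to 4058 CPM in nasal and 3729 to 4318 CPM in temporal libraries. Melanin genes were lower in 4 of 20 (20%), and in none without the block or without replicate 3, 4 or 5. Among the 4 were *TYRP1* (-0.31 ± 0.10), also not called without replicate 1, and *PMEL* (-0.30 ± 0.09).

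The lens list had 9 lower (64.3%, against 10.1% over all gene models tested) and 1 higher (7.14%, against 7.91%) of 14 tested gene models (median -1.19). *CRYAB*, a small heat shock protein also made outside the lens, had 14.1, 10.8, 12.02, 5.24 and 10.8 CPM in nasal and 37.6, 49.4, 76.9, 37.0 and 61.1 CPM in temporal libraries 1 to 5 in 1 of its gene models (-2.31 ± 0.16, adjusted p = 3.48e-07). *ASL*, the relative of the delta crystallin of birds and reptiles, had 0.857, 1.01, 0.845, 0.802 and 0.321 CPM in nasal and 7.57, 8.61, 13.4, 5.21 and 37.4 CPM in temporal libraries 1 to 5 (-3.95 ± 0.41, adjusted p = 1.81e-05), and temporal 5 stood above the other temporal libraries. Without replicate 5 the difference was -3.24. The beta crystallin *CRYBA2* was at 0 to 0.149 CPM in nasal and 1.21 to 2.68 CPM in temporal libraries. *CRYAA*, at 2.46 CPM or less, had too few reads to be tested, and the summed list was 209 to 263 CPM in nasal and 255 to 334 CPM in temporal libraries. The part of lens tissue in these values was not tested.

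Other tissues differed in how often their markers were called, where 18.1% of all gene models tested were. Periocular mesenchyme genes had 1 lower member of 30 tested (3.33% called) and summed to 609 to 1472 CPM in nasal and 709 to 1541 CPM in temporal libraries, and replicates 1 and 2 were the lowest in both regions. Endothelial genes were lower in 5 of 33 (15.2%, against 10.1% over all gene models tested, and 3 without the block) with none higher. They summed to 432 to 509 CPM in nasal and 460.2 to 596 CPM in temporal libraries. Among the lower ones were the VEGF receptors *FLT1* (-0.93 ± 0.21 and -0.83 ± 0.15 in its 2 called gene models) and *KDR* (-0.61 ± 0.14 in 1 model). The second *FLT1* model and this *KDR* model were not called without the block (adjusted p = 0.0788 and 0.0554). This *KDR* model was at 7.43 to 15.5 CPM in nasal and 14.1 to 21.05 CPM in temporal libraries. The *KDR* model with the highest level overlapped between the regions, at 128 to 141 CPM in nasal and 114 to 139 CPM in temporal libraries. The macrophage receptor *CSF1R* was lower (26.8 to 47.0 CPM in nasal and 45.7 to 67.1 CPM in temporal libraries, -0.61 ± 0.11), but *PTPRC*, which marks all white blood cells, was at 0.363 CPM or less. Blood genes ranged widely within both regions, from 963 to 2067 CPM in nasal and 1189 to 2486 CPM in temporal libraries, with 1 higher and 2 lower of 14 (21.4% called), and skeletal muscle genes, with 1 higher and 3 lower of 25 (16% called), summed to 69.1 to 129 CPM in nasal and 71.0 to 118 CPM in temporal libraries.

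**Figure D5:**
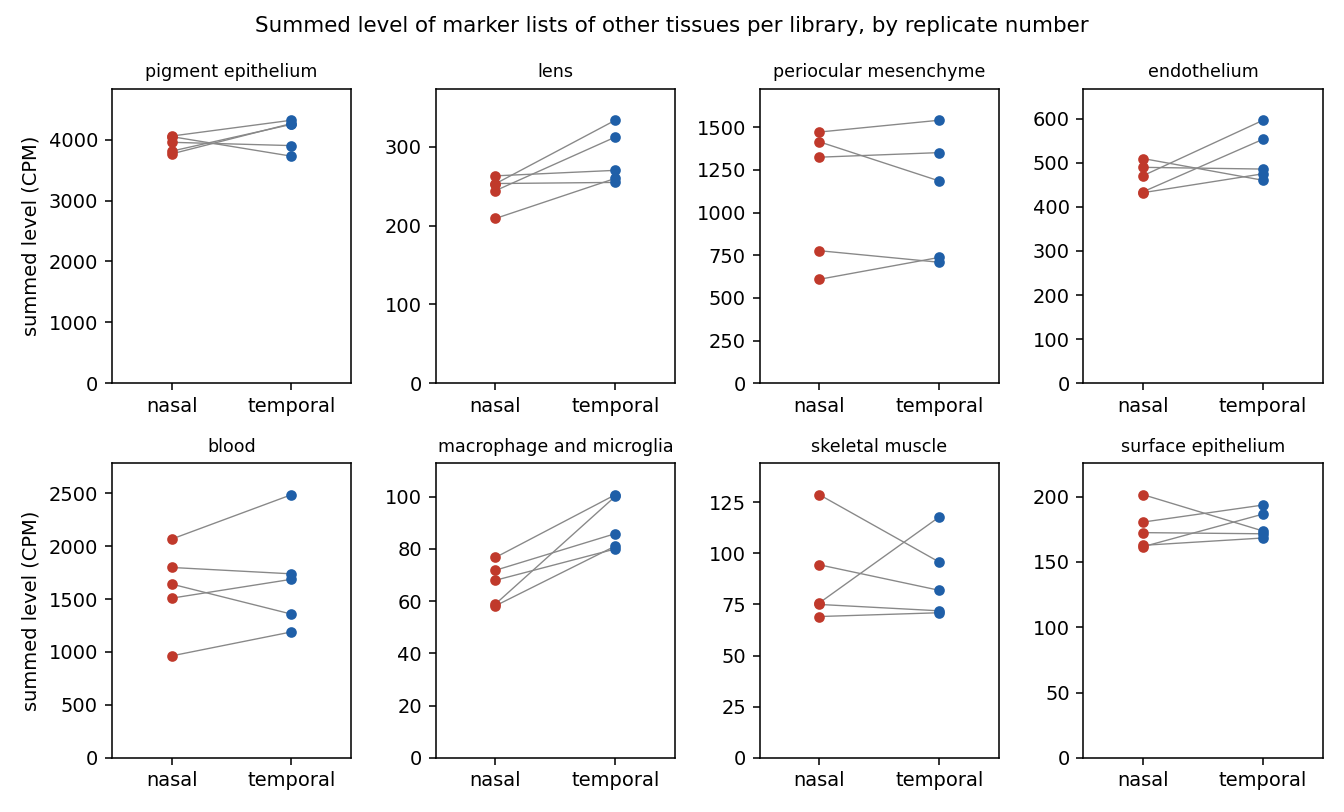
Summed level, in CPM, of 8 marker lists of other tissues in each nasal (red, left) and temporal (blue, right) library, with lines between libraries of the same replicate number. The nasal and temporal ranges overlap in every list except that of macrophages and microglia (58.2 to 76.7 CPM in nasal and 79.9 to 100.7 CPM in temporal). Of that list *CSF1R* alone averaged 37.2 CPM in nasal and 56.4 CPM in temporal libraries, and it was the only member called of 6 tested. The periocular mesenchyme list splits both regions alike, with replicates 1 and 2 low.

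Of 23 cartilage and sclera genes 2 were higher and 1 lower (13% called, against 18.1% over all gene models tested), and neither direction held a call without the block. Of 52 collagens 2 were higher and 3 lower (9.62% called), with *COL19A1* at 21.0 to 29.8 CPM in nasal and 40.3 to 51.9 CPM in temporal libraries (-0.66 ± 0.11). Of 99 laminins, integrins and other matrix genes 4 were higher and 12 lower (16.2% called, near the share over all gene models, with 3 and 7 without the block), with *LAMA5*, a laminin chain of basement membranes, at 16.1 to 20.1 CPM in nasal and 30.7 to 42.9 CPM in temporal libraries (-0.99 ± 0.10) and tenascin *TNC*, higher in nasal, at 116 to 149 CPM in nasal and 79.1 to 91.3 CPM in temporal libraries (0.58 ± 0.07).

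The central libraries were not tested, and their means come from a scaling of all 15 libraries together. The nasal and temporal means set beside them come from the separate scaling of the 10 libraries, so the positions are approximate. Central 4 held reads in 14994 gene models, the other central libraries in 17603 to 18617. *CYP1B1* averaged 220.2 ± 50.3 CPM, *CYP26C1* 44.2 ± 11.9 CPM and *ASL* 89.9 ± 36.9 CPM in central libraries (SD, n = 5 each), each above both other regions. *FOXD1* averaged 0.772 ± 0.530 CPM in central libraries (SD, n = 5), far below its level in temporal libraries. Of the 276 gene models that were more than 2-fold lower in nasal, the central mean lay above both means for 145, between them for 97 and below both for 34. Of the 58 that were more than 2-fold higher in nasal, it lay below both for 34, between them for 22 and above both for 2. Over all 15608 gene models tested it lay above both for 33.3%, between them for 25.5% and below both for 41.1%.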

How the data were processed

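RNA-seq (TruSeq Stranded mRNA libraries, sequenced on an Illumina NextSeq) was made from nasal, temporal and central posterior globe. The values are whole-number read counts for each gene model, which the authors deposited without normalisation in 1 table, and per the submitters' processing notes reads were aligned with HISAT2 2.2.1 and counted with featureCounts. The sources used here give neither the strand setting nor the genome build of the counting step. The last line of the table is not closed by a line end, and whether further gene models followed is unknown, while 0 columns belonged to samples outside the study.

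Counts of the 10 nasal and temporal libraries were filtered with filterByExpr (minimum count 10), scaled by TMM and fitted with edgeR 4.0.16 in R 4.3.3 (robust quasi-likelihood test, region plus replicate number as a block, Benjamini-Hochberg threshold 0.05). The 15608 gene models tested held 99.9% of the reads. CPM is not corrected for gene length, so levels are not compared between genes. Tested on simulated data of this comparison (15418 gene models, 200 changed), the test recovered 61% of 1.5-fold and 92% of 2-fold changes with 1 false call. The simulated counts were drawn from the fitted model with its replicate effects, so they cannot show whether the block suits the real libraries.

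Replicate numbers come from the labels. Across all gene models tested, deviations from the region mean correlated at over 0.1 in 5 of 5 same-numbered pairs (0.156 to 0.524) and in 2 of 20 others, and over the 13461 gene models above a mean of 1 log2 CPM in 4 of 5 (replicate 2 at 0.0364) and in 6 of 20. No source says what a number marks, and p-values measure the spread between these pooled samples, which may be technical in part.

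Classes were 47 symbol lists. Genes named were the 12 largest changes in each direction at 5 CPM or more with 1 direction in all 5 pairs, all called members of the nasal-temporal, EphA, retinoic acid and thyroid lists with *FOXD1*, *HMX1*, *EFNA2*, *EFNA5* and *EPHA3*, and up to 4 called members of every other list in order of adjusted p. Other genes were chosen after their values were seen, and members and lists were chosen with earlier results of these data known. Alternatives were no block, all 15 libraries, DESeq2 1.42.0, limma-voom (limma 3.58.1), scaling by RLE or by upper quartile, a filter that was absent or stricter (1 CPM in 5 libraries and 100 reads), and each replicate left out. Some gene models that fit this rule are not reported here. No fold changes or p-values of the authors were used.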

Additional observations from a re-analysis of the deposited data

Results flagged for a closer look

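Groups of 5 libraries were checked, each the level of a named gene model, a summed class or a library measure such as counted reads in 1 region. Of 350 such groups 24 held a library far from the other 4 (Dixon's test at its 95% limit, 0.71 for 5 libraries), where chance alone gives about 1 in 20 groups. No explanation was tested.

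Nasal 1 stood apart for 4 gene models. It was high for *SEMA3A* (46.7 CPM, others 40.1 to 42.0) and *HK2* (5.68, others 1.79 to 2.65), and low for *CHRM2* (43.6, others 50.8 to 53.0). Its single *FOXI2* read, 0.0536 CPM, was the only one in nasal libraries. In nasal 2 the summed bipolar list was low (6131 CPM, others 6580 to 6756), in nasal 3 *EPHA7* was high (30.5, others 23.3 to 24.2), and in nasal 4 the summed laminin, integrin and matrix list was high (5228, others 4749 to 4884). Nasal 5 was high for 1 *HES5* model (11.08, others 6.953 to 7.602) and low for *COL19A1* (21.0, others 27.9 to 29.8) and *SOX8* (10.3, others 15.5 to 16.9).

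Among temporal libraries, temporal 1 was high for the summed retinoic acid list (2377 CPM, others 1999 to 2083) and low for the hedgehog (378.0, others 414.7 to 426.3) and Notch lists (566.3, others 593.1 to 602.9). Temporal 2 was high for *ZIC1* (14.3, others 3.16 to 5.98), and temporal 3 for *FGF5* (19.1, others 9.95 to 12.1) and *KCNJ10* (36.7, others 26.4 to 28.7). Temporal 4 was high for *COL19A1* (51.9, others 40.3 to 42.1), *ENO2* (1585, others 1199 to 1281) and the Müller glia list (8132, others 7474 to 7632), and low for the SOX list (429.6, others 479.6 to 491.0). Temporal 5 was high for *SOX11* (67.8, others 49.6 to 52.3) and *ASL* (37.4, others 5.21 to 13.4), and low for *GFAP* (304.7, others 369.2 to 388.6) and *STRA6* (29.6, others 48.5 to 53.5).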

How the results depend on the processing

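The direction of all 181 named gene models held under every alternative run that tested them, and the number of calls did not. Under the stricter filter 176 of the 181 were tested. Without the replicate block 1503 gene models were called, 563 higher and 940 lower in nasal, and with all 15 libraries and no block 1048, 348 higher and 700 lower, so that 33.2% of calls were higher in nasal in place of 43.8%. With a replicate left out, the calls ranged from 1608 to 3570, the higher ones from 587 to 1744 and the lower ones from 999 to 1826. DESeq2 called 2997 and limma-voom 3904. Of the 181 named gene models, 27 lost their call without the block, 17 with all 15 libraries and the block, 46 with all 15 and no block, and 5 to 24 with a replicate left out. Neither RLE nor upper-quartile scaling ended a call. Of 94 counts of called class members, 41 moved by over 1.5 times without the block and 15 to 33 with a replicate left out. The cause of these moves was not tested. Gene models near the filter limit, such as *FOXI2* and *FOXD3*, rest on few reads, and their fitted differences depend on the prior count.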
